A study of Mus musculus with 10 samples.

Results

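The canonical WNT pathway was followed here through 10 genes: the feedback targets Axin2, Nkd1 and Nkd2, the DNA-binding factors Lef1, Tcf7, Tcf7l1 and Tcf7l2, the β-catenin gene Ctnnb1, and the co-receptor genes Lrp5 and Lrp6. They were chosen by gene symbol from the 23080 genes of a bulk RNA-seq count table, and all 10 were present and passed the filter on low counts that left 16267 genes to be tested. The libraries came from the anterior fontanelle (AF), the soft membrane between the frontal and parietal bones of the skull, of mouse embryos at E18.5. For each embryo the AF region was dissected with its suture connective tissue and adjoining bone, and without skin or brain. Of 10 libraries, 5 were labelled WT (control) and 5 were labelled as knockouts of Fgfr2 in neural crest cells, with the genotype Wnt1-Cre; Fgfr2fl/fl (mutant). Wnt1-Cre recombines in the neural crest, which gives rise to the frontal bones and to AF tissue, so cells of other origins in the same dissection keep the gene. The labels do not say whether control embryos carried Cre or floxed alleles, and no age other than E18.5 was sampled.

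WNT ligands bind Frizzled receptors together with LRP5 or LRP6. When no ligand is bound, a destruction complex built on AXIN proteins and APC marks β-catenin for degradation, and when the pathway is active β-catenin enters the nucleus and joins TCF/LEF factors on DNA. Axin2 and the Nkd genes are induced by that complex and act back on the pathway as inhibitors, which is why their mRNA is widely used as a readout of pathway output. In the skull, canonical WNT signaling takes part in the choice between bone, cartilage and connective tissue fates.

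The promoters of the feedback targets are shown because TCF/LEF factors read DNA through a short CTTTG-containing motif, and the question was whether that motif lies next to the start of the genes used as readouts. Each sequence is from RefSeq on GRCm38.p6 and runs 5′ to 3′ on the strand of the gene, from 250 bases before to 50 bases after a transcription start. The 300 bases of Axin2 (chr11:108920099-108920398, + strand, 70.0% G or C), of Nkd1 (chr8:88527383-88527682, + strand, 58.3% G or C; its RefSeq start lies inside the GENCODE gene) and of Nkd2 (chr13:73847582-73847881, - strand, 63.0% G or C) were
Axin2: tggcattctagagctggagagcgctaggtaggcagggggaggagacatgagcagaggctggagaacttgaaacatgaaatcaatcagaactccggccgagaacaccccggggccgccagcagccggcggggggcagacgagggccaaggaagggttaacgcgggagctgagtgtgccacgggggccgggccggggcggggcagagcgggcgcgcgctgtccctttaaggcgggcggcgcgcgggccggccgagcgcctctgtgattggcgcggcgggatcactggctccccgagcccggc
Nkd1: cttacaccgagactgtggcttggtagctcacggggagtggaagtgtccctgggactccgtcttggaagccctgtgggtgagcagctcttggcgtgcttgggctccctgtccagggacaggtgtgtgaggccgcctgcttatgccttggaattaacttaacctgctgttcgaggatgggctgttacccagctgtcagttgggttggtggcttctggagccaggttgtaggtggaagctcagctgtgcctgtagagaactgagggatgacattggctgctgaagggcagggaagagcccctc
Nkd2: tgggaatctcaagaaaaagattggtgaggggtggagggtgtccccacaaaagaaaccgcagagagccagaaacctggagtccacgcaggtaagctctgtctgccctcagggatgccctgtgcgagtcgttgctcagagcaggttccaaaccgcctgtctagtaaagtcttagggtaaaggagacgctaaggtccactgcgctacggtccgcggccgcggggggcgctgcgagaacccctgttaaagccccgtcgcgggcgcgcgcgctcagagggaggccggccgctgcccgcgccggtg

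Entries were found for 8 of the 10 genes, all but Lrp5 and Lrp6, and gave 14 windows. The strict motif CTTTGAT, read on both strands, was in 0 of the 14 windows, and it was in 3.73% of all 32851 mouse promoter windows of the same length. A wider form, CTTTGNN with the last 2 bases A or T, was in 2 of the 14 windows, and in 16.9% of all windows. The wider form includes every match of the strict one. Base composition was not matched in this comparison, and all windows had a median of 52.7% G or C. The 2 windows with a match had 43.7% and 42.0%, and the others of the 14 had 51.7% to 76.3%. Some windows of the same gene overlap, as for Lef1 and Ctnnb1. Both matches lay in genes for TCF/LEF factors themselves, at alternative starts inside the gene, and the matched bases are in capitals here. The Lef1 stretch was at chr3:131156121-131156180 on the + strand with its match on the opposite strand, and the Tcf7l2 stretch was at chr19:55895281-55895340 on the + strand with its match on the same strand.
Lef1: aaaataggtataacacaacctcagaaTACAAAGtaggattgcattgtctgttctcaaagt
Tcf7l2: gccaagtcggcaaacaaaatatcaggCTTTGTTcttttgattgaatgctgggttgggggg
The Lef1 match began 147 bases before its start site and the Tcf7l2 match 14 bases before. A match to these letters is a description of the sequence and not evidence of binding, and no match says only that the letters are not in that window.

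Library depth and identity were examined before the genes themselves. The libraries held 20774667 to 28515434 counts each, of which 18.7% to 33.6% came from ribosomal RNA genes. Fgfr2, the targeted gene, was at 200.2, 234.6, 175.8, 195.4 and 191.6 CPM (counts scaled to a common library size with edgeR's TMM factors) in control-labelled libraries 1 to 5 and at 299.2, 273.4, 324.8, 338.3 and 356.7 CPM in mutant-labelled libraries 1 to 5. The mutant-labelled libraries were therefore all higher, by 0.67 on the log2 scale (SE 0.09, edgeR quasi-likelihood test, adjusted p = 0.0487), which goes against the direction of the label. The exact permutation test gave p = 0.00794, the smallest it can give, and without one library at a time the edgeR adjusted p ranged from 0.009 to 0.26. The direction held under all alternatives, but the adjusted p was 0.427 with the replicate number as a block, 0.152 with library size only, 0.0625 with the Xist level as a covariate, 0.0557 with no filter on low counts and 0.999 with the osteoblast marker mean as a covariate. It stayed under 0.05 with DESeq2 size factors (0.0413), DESeq2's test (4e-10), voom (0.00966), at least 10 counts in every library (0.0282), ribosomal RNA genes left out (0.045) and the neuron marker mean as a covariate (0.0431). The table counts whole genes, so reads from exons outside the deleted part of Fgfr2 are included, 314 exonic bases are shared with Ctbp2, and the count does not check recombination. Groups are therefore named by their labels, as control-labelled and mutant-labelled, from here on. Mutant-labelled library 2 stood apart: its 8 neuron markers summed to 500.3 CPM, against 54.8 to 148 CPM in the control-labelled libraries and 56.4 to 192.0 CPM in the other mutant-labelled libraries. Neurod6, a marker of cortical neurons, was at 62.6 CPM there and at 0.667 to 9.36 CPM in the other 9 libraries. The dissection was described as free of brain. Osteoblast markers were abundant in every library, and all 14 were lower in the mutant-labelled libraries, 8 of them at an unadjusted p under 0.05 (7.49% of all genes tested) and 0 after adjustment (0.0184% of all genes). With mutant-labelled library 2 left out, 13 of the 14 were lower, 8 of them at an unadjusted p under 0.05. The study describes its control and mutant embryos as littermate pairs, but the labels do not say which libraries came from one litter, and p-values measure the spread between these libraries. In bulk tissue, fewer cells of a type and less RNA per cell cannot be told apart.

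Across the 10 WNT genes, no gene passed the adjusted threshold, and the only one past an unadjusted p of 0.05 was Nkd1. Benjamini-Hochberg adjusted p-values from edgeR, taken over all 16267 genes, called 0 of the 10, beside 3 genes or 0.0184% of all genes tested (Fgfr2, the histone variant gene H2az2 and the secreted protein gene Scube2, the last pair named after their values were seen). DESeq2 and limma voom also called 0 of the 10. At an unadjusted p under 0.05, 1 of the 10 passed, beside 7.49% of all genes tested (598 above and 621 below 0 in log2 fold change). The groups did not overlap for 0 of the 10, beside 1.48% of all genes. The fitted log2 fold change (mutant-labelled against control-labelled) was above 0 for 6 genes and below 0 for 4, with a median of 0.028, while 50.3% of all genes were above 0. The median absolute log2 fold change was 0.11 for the 10 genes and 0.09 for all genes tested. The shares of the 10 genes past the adjusted threshold, and on either side of 0, were close to the background.

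**Figure D1:**
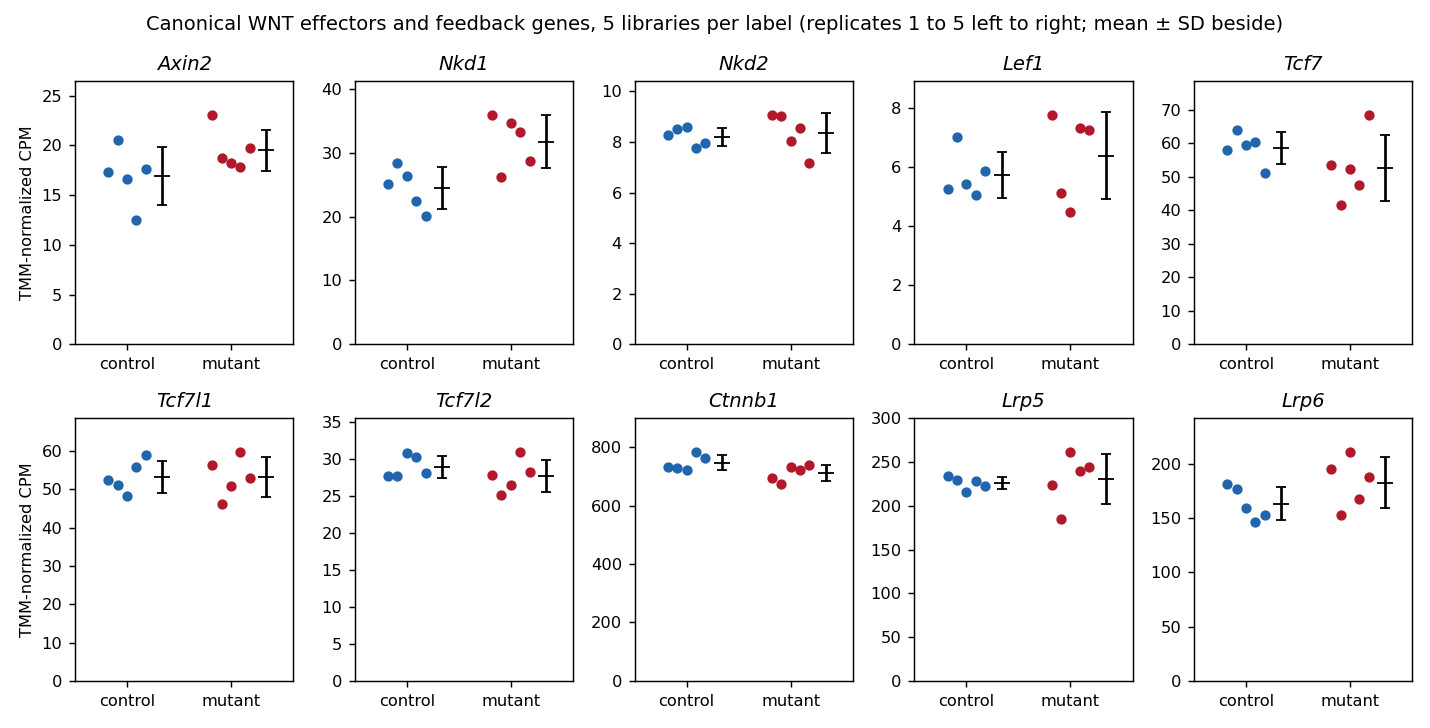
TMM-normalized CPM of each of the 10 genes in each library, with control-labelled libraries in blue, mutant-labelled libraries in red, replicates 1 to 5 from left to right, and the mean ± SD beside each group. Each vertical axis starts at 0, and the groups overlap in every panel; in the Nkd1 panel 4 of the 5 mutant-labelled libraries lie above all control-labelled ones.

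Among the feedback targets, Nkd1 was the highest in level per length and showed the largest difference. Nkd1 encodes Naked cuticle 1, which binds Dishevelled and dampens WNT signaling (chr8:88521354-88594884, + strand). Its level was 25.2, 28.4, 26.5, 22.4 and 20.1 CPM in control-labelled libraries 1 to 5. It was 35.9, 26.2, 34.8, 33.2 and 28.8 CPM in mutant-labelled libraries 1 to 5. In all, 4 of the mutant-labelled libraries were above all 5 control-labelled ones, and library 2, the one with high neuron markers, lay within the control range. The means were 24.5 ± 3.28 and 31.8 ± 4.15 CPM (SD, n = 5 each), from 476 to 828 counts per library. The log2 fold change was 0.37 (SE 0.11, 95% interval 0.13 to 0.61), or 29.5% higher with an interval of 9.78% to 52.7%. The edgeR p-value was 0.00526 before and 0.445 after adjustment, rank 191 of all genes, and the two-sided exact permutation test over all groupings of the libraries gave p = 0.0238, where 0.00794 is the lowest possible. The difference is larger than the spread between libraries when Nkd1 is looked at alone, and does not pass once all genes tested are counted.

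The Nkd1 difference was larger without mutant-labelled library 2, at 0.44 on the log2 scale (edgeR adjusted p = 0.275), and the groups then did not overlap. How many of all genes separate with that library left out was not counted. Leaving out each of the 10 libraries in turn gave log2 fold changes of 0.32 to 0.44 and edgeR adjusted p-values of 0.275 to 0.839, with the unadjusted p under 0.05 each time. The osteoblast marker level moved with the label: its mean log2 CPM was 8.40 to 8.76 in control-labelled libraries and 8.15 to 8.41 in mutant-labelled ones, and the 14 markers summed to 66610 to 78260 and 54510 to 78960 CPM, with no marker at 0. With that marker mean as a covariate, the Nkd1 log2 fold change was 0.27 and its unadjusted p no longer passed (edgeR adjusted p = 0.999). The marker level almost completely followed the label, so their parts in the Nkd1 difference cannot be told apart here.

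Axin2, a scaffold of the destruction complex and a widely used reporter of canonical WNT activity, did not differ beyond the spread between libraries. It lies at chr11:108920349-108950783 on the + strand and shares 209 exonic bases with Gm11670 on the opposite strand. Its level was 17.4, 20.6, 16.6, 12.5 and 17.6 CPM in control-labelled libraries 1 to 5, and 23.0, 18.7, 18.3, 17.9 and 19.7 CPM in mutant-labelled libraries 1 to 5. All but 1 of the mutant-labelled values fell inside the control range, whose low end was set by control-labelled library 4. Every mutant-labelled value was above control-labelled libraries 1, 3, 4 and 5, and only control-labelled library 2 made the groups overlap. The means were 16.9 ± 2.92 and 19.5 ± 2.08 CPM, with 305 to 600 counts per library. The log2 fold change was 0.20 (SE 0.12, 95% interval -0.06 to 0.46; edgeR p = 0.114, adjusted p = 0.718; exact permutation p = 0.143). The interval includes a difference of 38.0% upward and of 3.84% downward. Without control-labelled library 2 the log2 fold change was 0.29 (edgeR adjusted p = 0.564, with the unadjusted p now under 0.05) and the groups no longer overlapped. Without control-labelled library 4 it was 0.11 (edgeR adjusted p = 0.979). How many of all genes separate without control-labelled library 2 was not counted. With the osteoblast marker mean as a covariate the Axin2 log2 fold change was -0.12, and its unadjusted p did not pass. Since the marker level almost completely followed the label, their parts in the Axin2 difference cannot be told apart. No direction is read from the fit with that covariate.

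Nkd2, the second Naked cuticle gene, did not differ beyond its spread (chr13:73818534-73847631, - strand). Control-labelled libraries 1 to 5 held 8.27, 8.51, 8.59, 7.77 and 7.95 CPM, and mutant-labelled libraries 1 to 5 held 9.06, 9.02, 8.05, 8.56 and 7.15 CPM. The mutant-labelled values spread to both sides of the narrow control range. The log2 fold change was 0.03 (SE 0.09, 95% interval -0.16 to 0.21; edgeR adjusted p = 0.965), from 162 to 248 counts per library. Without one library it ranged from 0.00284 to 0.0776.

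The paralogs were compared within each library, since a ratio of 2 genes of one library does not depend on how the library was scaled. The ratio of Nkd1 to Nkd2 CPM was 3.05, 3.34, 3.08, 2.88 and 2.53 in control-labelled libraries 1 to 5. It was 3.96, 2.90, 4.32, 3.89 and 4.02 in mutant-labelled libraries 1 to 5. All mutant-labelled libraries other than library 2 were above every control-labelled one. The log2 ratio differed by 0.35 (two-sided exact permutation p = 0.0317, and p = 0.159 after adjustment over the 5 ratios computed). Without mutant-labelled library 2 the difference was 0.45 (exact permutation p = 0.00794, the smallest possible, adjusted p = 0.0397). Without control-labelled library 5, or without mutant-labelled library 1, 3, 4 or 5, the exact permutation p was 0.0556 to 0.0635 before adjustment, so the call on this ratio depends on which library is left out.

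**Figure D2:**
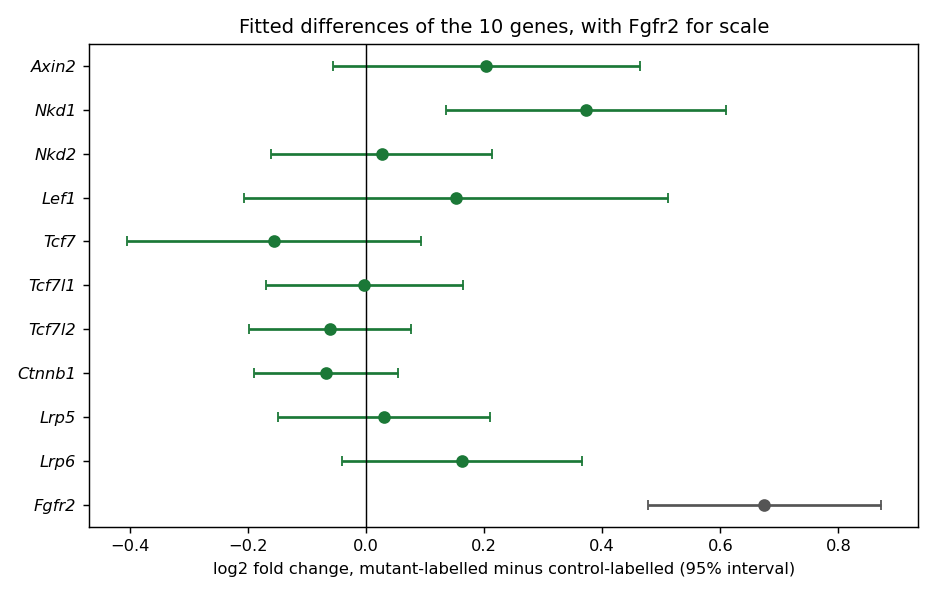
Fitted log2 fold change (mutant-labelled against control-labelled) with its 95% interval for the 10 genes, with Fgfr2 in grey for scale. Only the Nkd1 interval, 0.13 to 0.61, stays clear of 0 among the 10.

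The TCF/LEF factors, which carry β-catenin onto DNA or repress the same genes in its absence, showed no difference past the test. Tcf7 encodes TCF1 (chr11:52252371-52283014, - strand). It was at 58.1, 64.0, 59.5, 60.5 and 51.2 CPM in control-labelled libraries 1 to 5, and at 53.5, 41.7, 52.4, 47.5 and 68.4 CPM in mutant-labelled libraries 1 to 5. The mutant-labelled group held both the lowest value, in library 2, and the highest, in library 5. The means were 58.7 ± 4.70 and 52.7 ± 9.95 CPM, and the log2 fold change was -0.16 (SE 0.11, 95% interval -0.41 to 0.09; edgeR p = 0.196, adjusted p = 0.783; exact permutation p = 0.222). Without mutant-labelled library 5 it was -0.27 (edgeR adjusted p = 0.453, with the unadjusted p under 0.05). Without mutant-labelled library 2 it was -0.08, so the size of the difference hung on single libraries.

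Lef1, the least abundant of the family, was the least precisely measured of the 10 genes (chr3:131110471-131224356, + strand, with 1208 exonic bases shared with Gm43352 on the opposite strand). Control-labelled libraries 1 to 5 held 5.26, 7.03, 5.44, 5.07 and 5.88 CPM. Mutant-labelled libraries 1 to 5 held 7.76, 5.13, 4.49, 7.32 and 7.24 CPM. In all, 3 mutant-labelled libraries were above all controls, 1 was below all of them, and library 2 was near the bottom of the control range. The log2 fold change was 0.15 (SE 0.16, 95% interval -0.21 to 0.51; edgeR adjusted p = 0.864), from 105 to 205 counts per library. The interval includes a difference of 42.6% upward and of 13.3% downward. Without mutant-labelled library 1 the log2 fold change was 0.08, and without mutant-labelled library 3 it was 0.26.

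Tcf7l1 and Tcf7l2, which encode TCF3 and TCF4, differed least within the family. Tcf7l1 (chr6:72626378-72789254, - strand, 179 exonic bases shared with Gm15401 on the opposite strand) ranged from 48.2 to 58.8 CPM in the control-labelled and from 46.2 to 59.7 CPM in the mutant-labelled libraries, with means of 53.3 ± 4.15 and 53.2 ± 5.17 CPM. Its log2 fold change was -0.0030 (SE 0.08, 95% interval -0.17 to 0.16; edgeR adjusted p = 0.996). The sign turned with DESeq2 size factors (0.00486) and stayed with library size only (-0.0422). Tcf7l2 (chr19:55741820-55933654, + strand) ranged from 27.7 to 30.8 CPM and from 25.2 to 30.9 CPM in the same order, with means of 28.9 ± 1.52 and 27.7 ± 2.16 CPM. Its log2 fold change was -0.06 (SE 0.06, 95% interval -0.20 to 0.08; edgeR adjusted p = 0.858), and it ranged from -0.0957 to -0.0222 without one library. The mutant-labelled values reached beyond both ends of the control range for each gene, with 3 of 5 inside it for Tcf7l1 and 2 of 5 for Tcf7l2.

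The make-up of the family was also alike in the 2 groups. Levels were divided by the exon length of each gene, all annotated exons merged (GENCODE M21), before genes were compared. Each gene's share of the family's sum was then taken within each library, so the shares depend on those lengths. Tcf7 held 56.0% ± 3.15 of the sum in the control-labelled libraries and 53.3% ± 4.42 in the mutant-labelled ones (SD, n = 5 each). Tcf7l1 held 34.1% ± 3.12 and 36.3% ± 3.52, Tcf7l2 held 8.28% ± 0.496 and 8.49% ± 0.815, and Lef1 held 1.64% ± 0.208 and 1.93% ± 0.347. Every shift in share was smaller than the SD of the mutant-labelled group. The Lef1 shift, 0.295 percentage points, was larger than the control-labelled SD, and the other shifts were smaller than theirs. The within-library log2 ratio of Lef1 to Tcf7l1 differed by 0.14 (exact permutation p = 0.444, adjusted p = 0.444) and that of Tcf7 to Tcf7l2 by -0.11 (exact permutation p = 0.413, adjusted p = 0.444). Without one library these differences ranged from 0.08 (without control-labelled library 4) to 0.24 (without mutant-labelled library 3) for the first ratio, and from -0.20 (without mutant-labelled library 5) to -0.03 (without mutant-labelled library 4) for the second.

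Ctnnb1, the transducer of the pathway, was far more abundant than any other member (chr9:120929216-120960507, + strand; 759 exonic bases are shared with Ulk4 on the opposite strand and 23 with Mir7090). It was at 731, 730.1, 723, 783 and 764 CPM in control-labelled libraries 1 to 5. It was at 694, 672, 731, 722 and 740.4 CPM in mutant-labelled libraries 1 to 5. In all, 3 mutant-labelled values were below all controls and the others were inside the control range. The log2 fold change was -0.07 (SE 0.06, 95% interval -0.19 to 0.05; edgeR p = 0.25, adjusted p = 0.813; exact permutation p = 0.111). With 14953 to 21285 counts per library its interval was the narrowest of the 10, and it bounds a fall in mRNA at 12.3%. β-catenin activity is set mainly by the stability of the protein, which these data do not measure. The within-library log2 ratio of Axin2 to Ctnnb1 was higher in the mutant-labelled libraries by 0.29 (exact permutation p = 0.0794, adjusted over the 5 ratios p = 0.185). Without control-labelled library 2 this difference was 0.37 (exact permutation p = 0.00794, adjusted p = 0.0397), and without control-labelled library 4 it was 0.16 (exact permutation p = 0.167, adjusted p = 0.37).

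The co-receptors LRP5 and LRP6 bind WNT ligands beside Frizzled and recruit AXIN to the membrane. Lrp6 (chr6:134446476-134566965, - strand) was at 182, 177, 159, 147 and 153 CPM in control-labelled libraries 1 to 5, and at 195, 153, 211, 167 and 188 CPM in mutant-labelled libraries 1 to 5. In all, 3 mutant-labelled libraries were above all controls, and libraries 2 and 4 were inside the control range. The log2 fold change was 0.16 (SE 0.09, 95% interval -0.04 to 0.37; edgeR p = 0.108, adjusted p = 0.716; exact permutation p = 0.167). Without mutant-labelled library 2 it was 0.23 (edgeR adjusted p = 0.589, with the unadjusted p under 0.05), and over all 10 analyses without one library it ranged from 0.11 to 0.23.

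Lrp5 (chr19:3584828-3686564, - strand) was at 234, 229, 216, 229 and 222 CPM in control-labelled libraries 1 to 5, and at 224, 184.9, 262, 239 and 245 CPM in mutant-labelled libraries 1 to 5. The control values were tight and the mutant-labelled values spread to both sides of them, with library 2 lowest. The means were 226 ± 6.77 and 231 ± 29.0 CPM, and the log2 fold change was 0.03 (SE 0.08, 95% interval -0.15 to 0.21; edgeR adjusted p = 0.955). The within-library log2 ratio of Lrp5 to Lrp6 differed by -0.14 (exact permutation p = 0.111, adjusted p = 0.185).

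**Figure D3:**
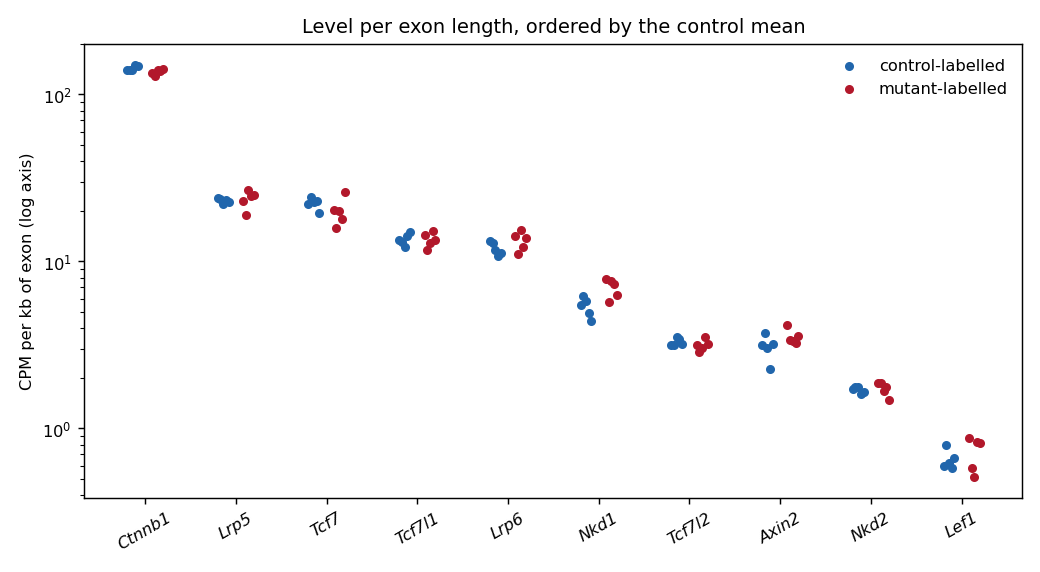
CPM per kilobase of exon for each gene and library on a log axis, ordered by the control-labelled mean, with control-labelled libraries in blue and mutant-labelled in red. Ctnnb1 stands alone at the top, and the control mean of the highest gene is 220 times that of the lowest, Lef1.

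Ordered by level per length in the control-labelled libraries, the genes were Ctnnb1 at 144 CPM per kilobase of exon, Lrp5 at 23.2, Tcf7 at 22.4, Tcf7l1 at 13.6, Lrp6 at 11.95, Nkd1 at 5.38, Tcf7l2 at 3.30, Axin2 at 3.08, Nkd2 at 1.70 and Lef1 at 0.653. The control ranges of 3 neighbouring pairs overlapped, and the order within those pairs was not tested: Lrp5 and Tcf7, Tcf7l1 and Lrp6, and Tcf7l2 and Axin2. Within libraries, Tcf7l1 was above Lrp6 in all 5 control-labelled but in 3 of 5 mutant-labelled libraries. Ctnnb1 was 6.19 times the next gene, Tcf7 was 34.2 times Lef1, Lrp5 was 1.94 times Lrp6, and Nkd1 was 3.16 times Nkd2, each from control means per length. These ratios depend on the length used, all annotated exons merged, which was 2.625 kilobases for Tcf7 and 8.788 for Lef1. Before division by length, the control means of Tcf7 and Lef1 were 58.7 and 5.74 CPM. In the mutant-labelled libraries Axin2, at 3.55 CPM per kilobase, had a higher mean than Tcf7l2, at 3.16, but Tcf7l2 was still higher in 1 of the 5. The other places in the order were the same by group means.

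How precisely the libraries bound a difference varied across the genes. The 95% interval of the log2 fold change reached from 0.12 to 0.36 to either side of the estimate, narrowest for Ctnnb1 and widest for Lef1. For 5 of the 10 genes the whole interval lay within 0.25 of 0 on the log2 scale, and for 8 of 10 within 0.5. The 2 exceptions at 0.5 were Nkd1 and Lef1. The median biological coefficient of variation was 11.3% for the 10 genes and 13.29% for all genes tested, with Lef1 (19.3%), Axin2 (13.9%) and Tcf7 (13.31%) above the latter and the other 7 below it.

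**Figure D4:**
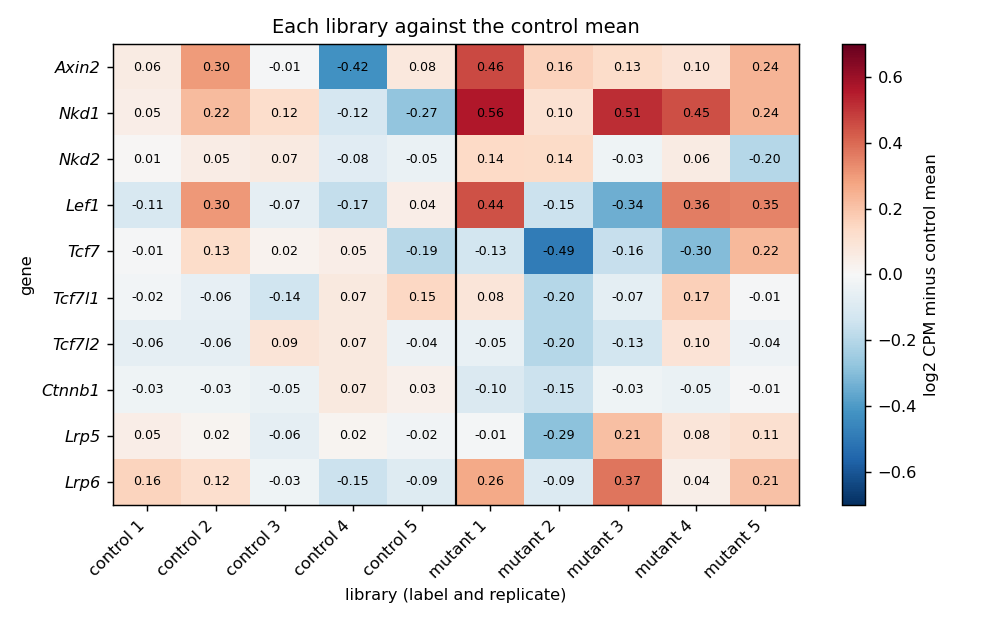
log2 CPM of each gene in each library minus the mean of the control-labelled libraries, in color from blue (lower) to red (higher), with control-labelled libraries left of the line. Mutant-labelled library 2 is lowest for 5 of the 10 genes, and mutant-labelled library 1 is highest for 4.

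Single libraries moved several of the genes at once. Mutant-labelled library 2 was the lowest of the 10 libraries for Tcf7, Tcf7l1, Tcf7l2, Ctnnb1 and Lrp5, and mutant-labelled library 1 was the highest for Axin2, Nkd1, Nkd2 and Lef1. With the neuron marker mean as a covariate, chosen after library 2 had been seen, the Nkd1 log2 fold change was 0.41 (edgeR adjusted p = 0.352) and that of Lrp6 was 0.22 (edgeR adjusted p = 0.507), both with an unadjusted p under 0.05. All 8 neuron markers were higher in the mutant-labelled libraries, with a median log2 fold change of 0.87, and 2 had an unadjusted p under 0.05. Without mutant-labelled library 2, 6 of the 8 were higher, the median was 0.23 and 0 had an unadjusted p under 0.05, so this difference rested on that library. Of 7 markers of tendon-like connective tissue, 5 were higher and 4 of them had an unadjusted p under 0.05, beside 7.49% of all genes tested. The part of cell makeup in the WNT gene values was not tested beyond these covariates. T cells also express Tcf7 and Lef1. Of 8 T cell markers, Cd4, Lck and Bcl11b were measured, and they summed to 23.1 to 41.8 CPM in the control-labelled and 33.5 to 48.6 CPM in the mutant-labelled libraries. Most of that sum was Bcl11b (means of 26.8 and 38.1 CPM, log2 fold change 0.51, edgeR adjusted p = 0.568), a transcription factor gene that other tissues also express. Cd4 was at 3.84 and 3.82 CPM and the kinase gene Lck at 13 to 31 counts per library; Cd3d, Cd3e, Cd3g, Cd8a and Themis were not analysed here.

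Whether the readouts followed Axin2 from library to library was examined over the 10 libraries for the 9 other genes. Pearson's r of log2 CPM with Axin2 was 0.60 for Nkd1 (permutation p = 0.0627), 0.596 for Lef1 (p = 0.0535) and 0.616 for Lrp6 (p = 0.0493), and -0.647 for Ctnnb1 (p = 0.0495). After adjustment over the 9 genes each of these 4 was at a permutation p of 0.141. Spearman's rho was 0.661 for Nkd1 (p = 0.0437), 0.539 for Lef1 (p = 0.115), 0.564 for Lrp6 (p = 0.0958) and -0.491 for Ctnnb1 (p = 0.155), with adjusted permutation p-values of 0.345, 0.345, 0.345 and 0.349. Control-labelled library 4 and mutant-labelled library 1 were farthest from the Axin2 median, and without them r fell to 0.257 for Nkd1, 0.474 for Lef1, 0.303 for Lrp6 and -0.0768 for Ctnnb1. Leaving them out also narrows the range of Axin2, so the relations could not be judged apart from those 2 libraries. With each group centred on its own mean, r was 0.401, 0.561, 0.496 and -0.509 in the same order. Over all 45 pairs of the 10 genes the median r was 0.182, from -0.746 for Nkd2 with Ctnnb1 to 0.766 for Nkd1 with Lrp6, as a description of libraries that share their scaling.

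Other parts of the pathway were looked at as lists of genes grouped by role, and 0 genes of any list passed the adjusted threshold. Of 13 genes of the destruction complex and its regulators, 10 were higher and 3 lower, with a median log2 fold change of 0.05, where 50.3% of all genes tested were higher and 7.49% had an unadjusted p under 0.05 in either direction; the counts of each list in this paragraph read against these shares. The 2 with an unadjusted p under 0.05 were Gsk3b, the kinase that marks β-catenin (81.6 and 91.6 CPM in control-labelled and mutant-labelled means, log2 fold change 0.17, adjusted p = 0.643), and Amer1, a membrane adaptor of the complex (22.9 and 25.9 CPM, 0.18, adjusted p = 0.634). Of 11 tested genes for Dishevelled proteins, receptor kinases and receptor partners, 5 were higher and 6 lower. Only Lrp4, which binds the WNT inhibitor sclerostin, had an unadjusted p under 0.05 there (129 and 114 CPM, -0.18, adjusted p = 0.55). All 9 coactivators were above 0, with a median of 0.06, and only Bcl9l, which links β-catenin to PYGO proteins, had an unadjusted p under 0.05 (144 and 162 CPM, 0.17, adjusted p = 0.468). Of the 9 coactivators, 8 stayed above 0 without mutant-labelled library 2. Of 10 tested corepressors, 8 were above 0 and 2 below, and only Tle4, a Groucho protein that binds TCF factors, had an unadjusted p under 0.05 (19.7 and 24.1 CPM, 0.29, adjusted p = 0.656). These genes were named after their values were seen, and the adjusted p-values are edgeR's over all genes tested. With library size only, 7 were higher and 6 lower in the destruction complex list, and 2 and 9 in the Dishevelled list. The coactivators were then 7 and 2, and the corepressors 7 and 3. Only the Dishevelled list then held an unadjusted p under 0.05, for 1 lower gene, beside 5.95% of all genes. With voom the corepressors held 0 and the coactivators 2. Without control-labelled library 1 the corepressors and the destruction complex held 0.

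Genes known as WNT targets in other settings did not move one way. Of 21 tested, 9 were higher and 12 lower, with a median log2 fold change of -0.04, and 6 had an unadjusted p under 0.05, 1 higher and 5 lower, beside 7.49% of all genes tested. Without mutant-labelled library 2, 11 were higher and 10 lower, with a median of 0.04, and 2 in each direction had an unadjusted p under 0.05. With the osteoblast marker mean as a covariate, 11 were higher and 10 lower, with a median of 0.11. Under that covariate 2 higher and 1 lower had an unadjusted p under 0.05, beside 3.07% of all genes tested. The marker level almost completely followed the label, so their parts in these differences cannot be told apart. In all 10 libraries, the groups did not overlap for 2 of the 21, beside 1.48% of all genes, and both encode secreted WNT inhibitors. Wif1, which binds WNT ligands, was at 259 ± 21.9 CPM in the control-labelled and 202 ± 19.99 CPM in the mutant-labelled libraries. Its log2 fold change was -0.36 (SE 0.08; edgeR adjusted p = 0.302; exact permutation p = 0.00794). Notum, an enzyme that strips the lipid from WNT ligands, held 4.65 ± 1.02 and 2.86 ± 0.279 CPM in the same order. Its log2 fold change was -0.70 (SE 0.16; edgeR adjusted p = 0.307; exact permutation p = 0.00794). Notum shares 918 exonic bases with Myadml2os and Notumos on the opposite strand. The other 4 were named after their values were seen: Lgr5, an R-spondin receptor, had a log2 fold change of 0.65 (6.50 and 10.2 CPM), the WNT inhibitor Dkk1 -0.29, the TGF-beta pseudoreceptor Bambi -0.25 and the hyaluronan receptor Cd44 -0.22, with edgeR adjusted p-values of 0.411 to 0.653. Wif1, Notum and Lgr5 were singled out by the study from these libraries, so their direction here is not independent evidence.

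**Figure D5:**
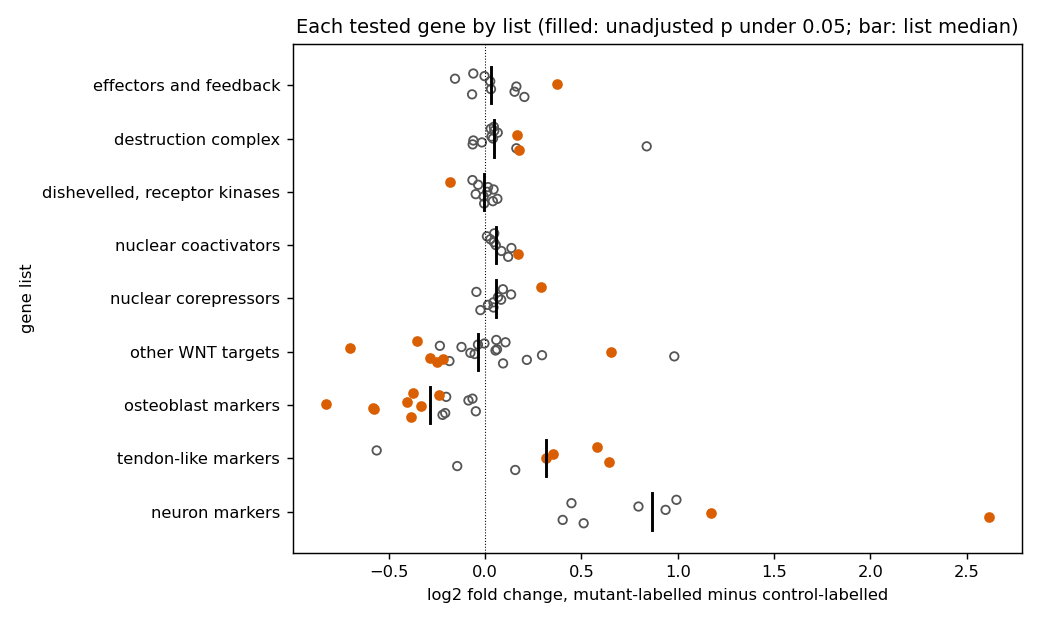
log2 fold change (mutant-labelled against control-labelled) of every tested gene, one row per list, with filled points for an unadjusted p under 0.05 and a bar at the list's median. The 10 effector and feedback genes in the top row center near 0, with Nkd1 as the only filled point, while all 14 osteoblast markers lie below 0 (13 without mutant-labelled library 2) and all 8 neuron markers above (6 without that library).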

How the data were processed

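Bulk RNA-seq libraries were prepared with a stranded kit and sequenced as single reads. The submitters' processing notes name the build mm10 and the tool Partek. The aligner and the counting settings, including the use of strand, are not given in the sources used here. The authors deposited a table of estimated counts per gene (23080 genes), of which 67.2% are whole (tolerance 1e-09); all were rounded to whole numbers. Every gene in the table sums to at least 10 counts.

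Groups were taken from the sample labels, 5 libraries each. Genes passing filterByExpr (16267) were tested with edgeR 4.0.16 in R 4.3.3 (TMM scaling, quasi-likelihood test, Benjamini-Hochberg adjustment over all of them); CPM and log2 CPM (prior count 0.5) came from the same fit. The code was tested on simulated data. Single values were compared by two-sided exact permutation of libraries, and correlations with 100000 resamples. Gene positions and exon lengths are from GENCODE M21 on GRCm38, and promoters from RefSeq. Alternatives were other scalings and filters, DESeq2 1.42.0, limma 3.58.1 (voom), a replicate block, covariates and leaving out each library. Same-numbered libraries did not deviate together (r -0.245 to 0.169), so numbers were not treated as pairs.

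The 10 genes and all gene lists were chosen with earlier results of these data known. Named genes were the 10 genes, Fgfr2, genes of the WNT pathway lists (not the cell type markers) with an unadjusted p under 0.05 and no overlap between groups, and the 5 genes most correlated with Axin2; other genes are marked where named.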

Additional observations from a re-analysis of the deposited data

Results flagged for a closer look

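One library stood apart from its group in a reported value. For the Nkd1 to Nkd2 ratio in the 5 mutant-labelled libraries, library 2 was lowest, at 2.90 against 3.89 to 4.32 in the other 4. Its gap to the next library was 0.735 of the group's range on the log2 scale, above Dixon's 95% critical value of 0.71 for 5 samples. The 32 groups of 5 values examined this way gave this single case, and chance flags about 1 in 20. The same library had the highest neuron marker level, 500.3 CPM, and its part in the ratio was not tested beyond leaving it out.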

How the results depend on the processing

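Under every one of the 12 alternatives other than leaving out a library, including an adjusted p under 0.1, and under each of the 10 analyses without one library, 0 of the 10 genes passed the adjusted threshold. Over all genes tested the count past it was 3, against 98 with DESeq2's Wald test, 1 with library size only, with the replicate block and with the Xist level as a covariate, 2 with no filter on low counts, 0 with the osteoblast covariate and 1 to 6 without one library. The count of the 10 genes at an unadjusted p under 0.05 was 1, and became 2 with library size only (Nkd1 and Tcf7), with voom (Nkd1 and Lrp6) and with the neuron covariate (Nkd1 and Lrp6, chosen after seeing the data), 0 with the osteoblast covariate and 1 to 2 without one library; the cause was not tested. The share of all genes tested at that threshold was 7.49%, against 5.95% with library size only, 7.32% with voom, 7.45% with the neuron covariate, 3.07% with the osteoblast covariate and 5.19% to 8.34% without one library. The count of the 10 genes whose groups do not overlap was 0 to 1 without one library. The share of all genes was not counted in those settings, so these cases have no background to read against. With the replicate block, 1 of the 10 passed the unadjusted and 0 the adjusted threshold (lowest adjusted p = 0.591, for Nkd1).

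Signs turned only for small log2 fold changes or with the osteoblast covariate. Tcf7l1 became 0.00486 with DESeq2 size factors, 0.00479 with DESeq2's test, 0.00465 with voom, 0.00566 with at least 10 counts in every library, 0.000808 without ribosomal RNA genes, 0.0237 with the neuron covariate and -0.0399 to 0.0496 without one library. Nkd2 became -0.00516 with library size only, -0.0119 with voom and -0.00882 with the neuron covariate. Lrp5 became -0.0151 with library size only and -0.00978 to 0.106 without one library. With the osteoblast covariate the log2 fold change was -0.116 for Axin2, -0.172 for Nkd2, -0.13 for Lef1, 0.08 for Tcf7, 0.00135 for Tcf7l2 and 0.0191 for Ctnnb1; the cause was not tested. The sign for Nkd1 and Lrp6 held in all of these. Library size only moved the median of all genes to -0.0376. Lef1 and Nkd2 had the fewest counts, at 105 to 248 per library.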

Other observations

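The genes whose log2 CPM followed Axin2 most closely over the 10 libraries were, among 11005 genes with a mean of at least 5 CPM, Ppat (r = 0.961), Setbp1 (0.935), B4galt5 (0.928), Trerf1 (0.924) and Taf5 (0.917), ranked on the same libraries and given as a description. Their log2 fold changes ranged from 0.05 for Taf5 to 0.20 for Trerf1, and the edgeR adjusted p-values were 0.653 to 0.933.

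Markers of other cell types that the dissection could hold gave 0 genes past the adjusted threshold with edgeR. The median log2 fold change was 0.15 for 7 cartilage markers, -0.15 for 7 osteoclast markers, 0.09 for 6 epidermal markers, 0.13 for 8 glial markers, 0.03 for 8 endothelial markers, -0.14 for 7 macrophage markers, -0.13 for 6 muscle markers, -0.08 for 7 red cell markers, -0.01 for 7 meningeal markers and 0.01 for 8 proliferation genes. Of all these genes, the cartilage collagen gene Col2a1 (log2 fold change 0.88, adjusted p = 0.302) and the osteoclast marker Calcr (-0.54, adjusted p = 0.631) had an unadjusted p under 0.05, and both were named after their values were seen. Muscle markers varied most between libraries, summing to 15.9 to 708 CPM in the control-labelled and 15.9 to 699 CPM in the mutant-labelled libraries. Epidermal markers summed to at most 23.2 CPM in any library.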
